A study of Mus musculus with 2 samples.

Results

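The lysosomal hydrolases and membrane proteins of mouse liver are described here as a set of 48 genes, listed by symbol with earlier results of these data known, of which 45 had a probe set annotated to that gene alone, among 12393 such genes on the array. The 45 genes were read by 80 probe sets. Arsb, Cd63 and Aga were not analysed here. Each gene was represented by its brightest probe set, by the mean of the log2 signals of both arrays, and its log2 ratio was taken as squalene over control.

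Both pools came from livers of male apolipoprotein E-deficient mice on a C57BL/6J/ OLA129 background, for which an age of 2 months is given, kept on chow with a drink of 1% (v/v) glycerol for 10 weeks. The drink of the squalene group also supplied squalene, the triterpene from which sterols are made, in a daily dose of 1 g per kg, whereas that of the control group held glycerol alone. RNA of each group was pooled and hybridised to 1 Affymetrix array, with 2 arrays in all. The sources used here do not give the number of animals pooled, the hour of collection or the feeding state. There were thus no replicates, no spread between animals could be measured, and no test between the groups was possible. Since the apolipoprotein E gene was targeted in both groups, the comparison concerns squalene within that genotype only. All 13 hepatocyte markers examined had signals above the array medians in both pools, which fits the tissue label.

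Lysosomes are acidic organelles in which hydrolases break down proteins, glycans, sulfated glycosaminoglycans, sphingolipids and lipoprotein cholesteryl esters taken up by endocytosis or delivered by autophagy. The enzymes are tagged with mannose phosphate in the Golgi and sorted to the organelle, whose limiting membrane carries heavily glycosylated proteins, ion channels and lipid exporters. In liver, hepatocytes and Kupffer cells, the resident macrophages, are both rich in lysosomes. Some lysosomal genes are known to carry a promoter element called CLEAR, an extended E-box that is bound by the transcription factor TFEB.

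The promoters were therefore searched for the E-box of this element, and windows that hold several matches are printed to show how the matches are arranged. The RefSeq promoter table, of build GRCm38.p6, holds 42 of the 48 genes in 50 windows, each running from 250 bases before to 50 bases after an annotated start. On both strands, the E-box with 1 flanking base, TCACGTG in either orientation, occurred in 12 of the 50 windows (24.0%) and in 3.77% of the 32851 windows of all genes. Matches to the bare E-box CACGTG include these and were found in 26.0% and 7.15% of the windows. The palindrome TCACGTGA, which holds the flanked E-box on both strands, was present in 5 of the 50 windows (10.0%) and in 0.974% of all windows. The 5 genes with it were Cln3, Ctsa, Ctsd, Gla and Mcoln1. In 6 genes a window held at least 2 flanked E-boxes. Stretches are given for the 5 of them whose matches all lie upstream of the start, since 1 of the matches in Ctsa lies after it. They run 5′ to 3′ on the gene's strand, with each flanked E-box in capitals.
Lamp1: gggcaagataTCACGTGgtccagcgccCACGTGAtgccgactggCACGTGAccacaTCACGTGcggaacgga
Mcoln1: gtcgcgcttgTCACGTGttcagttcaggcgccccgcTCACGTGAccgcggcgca
Cln3: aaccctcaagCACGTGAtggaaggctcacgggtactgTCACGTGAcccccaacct
Ctsd: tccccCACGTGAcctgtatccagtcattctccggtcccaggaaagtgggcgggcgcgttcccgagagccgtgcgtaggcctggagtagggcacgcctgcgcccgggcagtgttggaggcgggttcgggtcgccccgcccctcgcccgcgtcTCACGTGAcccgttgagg
Gla: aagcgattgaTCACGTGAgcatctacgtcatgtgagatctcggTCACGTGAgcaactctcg
They lie at chr8:13159089-13159160 (+) for Lamp1, chr8:3500437-3500490 (+) for Mcoln1, chr7:126583341-126583395 (-) for Cln3, chr7:142387909-142388077 (-) for Ctsd and chrX:134601183-134601243 (-) for Gla. Lamp1 carried 4 E-boxes between 61 and 15 bases before its start, and each of the other 4 genes carried 2. A match is a description of the letters and does not show that a factor was bound.

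Most lysosomal transcripts read nearly alike in both pools. Of the 45 genes, 39 had a log2 ratio between -0.5 and 0.5, 4 were lower than -0.5 (Dram1, Ids, Sgsh and Lgmn) and 2 were higher than 0.5 (Ctsk and Idua). Over all 12393 genes 19.8% lay below -0.5 and 21.5% above 0.5, so neither count of lysosomal genes exceeded the share of the array as a whole. Past a log2 ratio of 1.5, the screen that the submitters state, 1 lysosomal gene was lower and 1 higher, beside 7.30% and 7.86% of all genes. The median log2 ratio of the 45 genes was -0.09 with the central values between -0.29 and 0.02 (25th to 75th percentile), beside a median of 0.01 over all genes. Of the 45, 31 lay below 0, as did 48.6% of all genes.

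Genes with large ratios were mostly those with weak signals. The array medians were 39.90 in the control pool and 41.35 with squalene, and a signal under its array's median is called dim. Of the 45 genes, 38 were at or above the median in both pools, 5 were dim in both (Ctsk, Galns, Ids, Sgsh and Tfeb), and Dram1 and Gla were dim in the squalene pool only. Where the mean log2 signal of a gene was at or above the median over all probe sets, 37 of 39 lysosomal genes lay within 0.5, with Lgmn lower and Idua higher. Among all 6902 genes that met this limit, 8.08% were lower and 9.21% higher. At or above the 75th percentile of mean signal, 30 of 31 lysosomal genes lay within 0.5, 1 was lower and 0 were higher, where 3.75% and 4.87% of 3655 genes were.

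**Figure D1:**
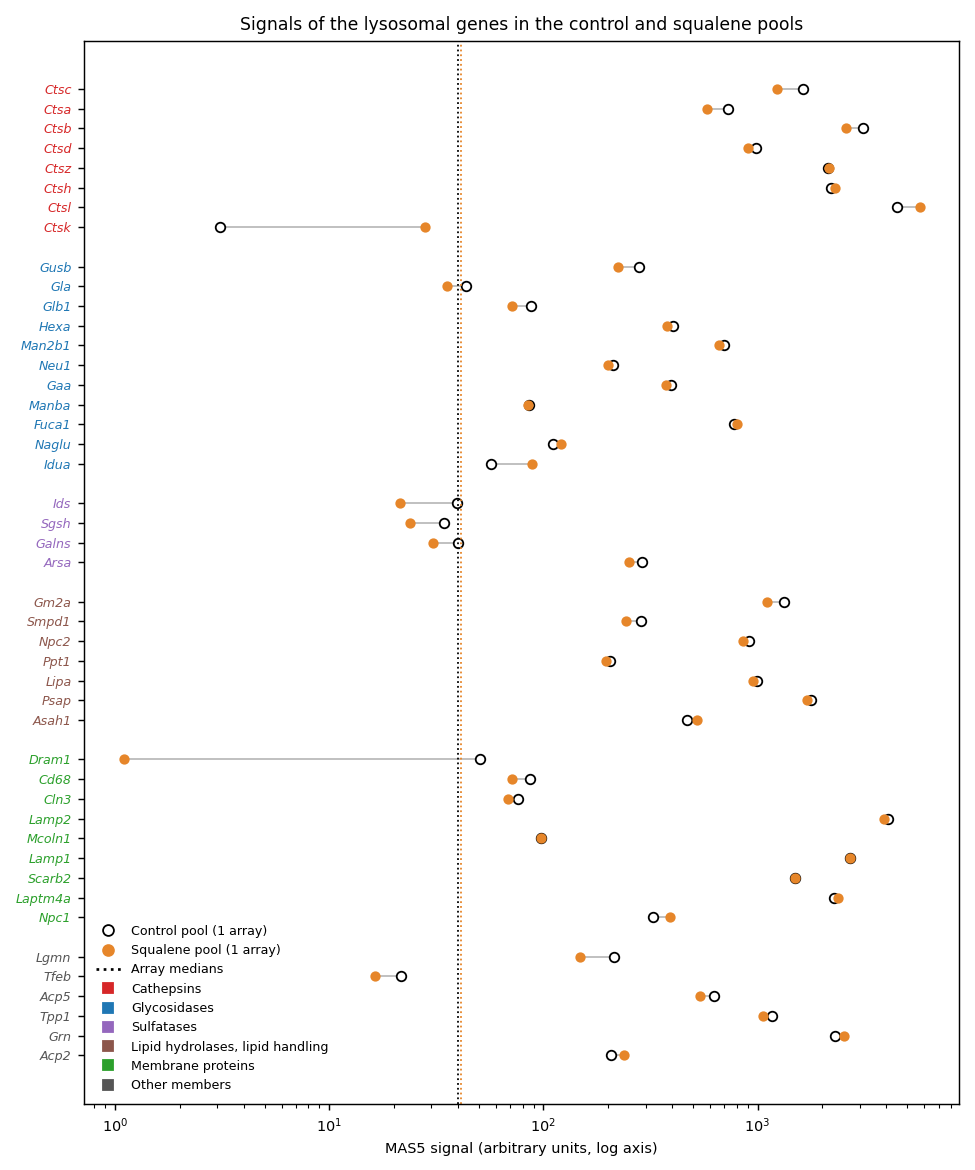
MAS5 signal of the chosen probe set of each of 45 lysosomal genes (log axis, arbitrary units) in the control pool (open circles) and the squalene pool (filled circles), 1 array each, with dotted lines at the array medians of 39.90 and 41.35. The circles of most genes nearly coincide, and the long connecting lines belong to Ctsk and Dram1, which have signals of 3.1 and 1.1 in 1 pool.

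The cathepsins are the main lysosomal proteases, and 7 of the 8 in the set had strong signals in both pools. Ctsl, a cysteine endopeptidase, gave signals of 4475.5 in the control pool and 5712.1 with squalene, the highest ratio of these 7 (log2 ratio 0.35, 1.28-fold). Ctsc, a dipeptidyl peptidase that activates the serine proteases of immune cell granules, gave 1624.0 and 1236.3, the lowest of them (-0.39). Ctsa, a serine carboxypeptidase that also protects beta-galactosidase and sialidase within a complex, gave 730.7 and 577.8 (-0.34). These differences stood in opposite directions and each was under 1.5-fold in size. Of the further lysosomal enzymes given below, the cathepsins Ctss (673.3 and 485.0, -0.47), Ctsf (-0.95) and Ctsw (-2.12) were lower with squalene. Ctsf was dim with squalene and Ctsw in both pools.

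Ctsb, a cysteine protease, was measured by 4 probe sets, and its brightest gave 3101.8 in the control pool and 2583.5 with squalene (log2 ratio -0.26). The other 3 ran from -0.33 to 0.16, so the probe sets of this gene lay on both sides of 0. Ctsd, the main aspartic protease, gave 986.8 and 901.9 (-0.13), Ctsh, an aminopeptidase, 2191.9 and 2304.0 (0.07), and Ctsz, a carboxypeptidase, 2141.0 and 2165.3 (0.02). Ctsk, the collagen-degrading protease known from osteoclasts, gave 3.1 and 27.9, both dim, and with signals floored at the array medians its log2 ratio was 0.05.

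Glycosidases, which trim sugars from glycoproteins, glycolipids and glycosaminoglycans, differed as little as the cathepsins did. Of 11 genes, 8 lay below 0, with log2 ratios from -0.32 for Gusb, the beta-glucuronidase, to 0.63 for Idua, the alpha-L-iduronidase of heparan and dermatan sulfate breakdown. Idua gave signals of 56.9 in the control pool and 88.2 with squalene (1.55-fold), not far above the array medians. Its second probe set gave 41.1 and 58.7 (0.51), so both of its probe sets were higher in the squalene pool. Gusb gave 278.7 and 222.7 on its brighter probe set, and 0.18 as log2 ratio on the other.

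The remaining glycosidases lay between these. Glb1, the beta-galactosidase, gave 87.5 in the control pool and 71.5 with squalene (log2 ratio -0.29), and Gla, the alpha-galactosidase, 43.3 and 35.5 (-0.29, with -0.34 on its second probe set). Hexa, a subunit of beta-hexosaminidase, gave 403.3 and 376.9 (-0.10), and Gaa, the enzyme that degrades lysosomal glycogen, 395.0 and 375.5 (-0.07). Man2b1, an alpha-mannosidase, gave 699.0 and 657.9 (-0.09), and Manba, the beta-mannosidase, 85.4 and 84.4 (-0.02). All 6 lay below 0 on the chosen probe set, at -0.29 or nearer to 0. A second probe set gave 0.07 for Gaa and, dim in both pools, -0.50 for Man2b1. Neu1, the sialidase, gave 210.4 and 199.6 (-0.08), but its weaker probe sets, dim in both pools, gave -1.58 and 0.55. Fuca1, the alpha-L-fucosidase, gave 772.4 and 805.4 (0.06), and Naglu, a glucosaminidase of heparan sulfate breakdown, 110.5 and 120.8 (0.13).

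Sulfatases were the class with the lowest median, -0.46 over 4 genes, but 3 of the 4 were dim in both pools. Arsa, which removes sulfate from sulfatide, was the exception and gave 289.9 in the control pool and 250.0 with squalene (log2 ratio -0.21). Galns, of keratan sulfate breakdown, gave 39.8 and 30.4, and Sgsh, of heparan sulfate breakdown, 34.4 and 23.8. Ids, the iduronate sulfatase, gave 39.6 and 21.3 on the chosen probe set (-0.89), while its other 4 probe sets ran from -0.90 to 2.02. The 5 probe sets of Ids therefore gave no common direction.

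Enzymes and carriers of lipid breakdown were no more than 0.26 from a log2 ratio of 0 in all 7 cases, with 6 below it. Lipa, the acid lipase that hydrolyses the cholesteryl esters and triglycerides of internalised lipoproteins, gave 994.1 in the control pool and 953.1 with squalene (log2 ratio -0.06), with 0.16 and 0.69 on its other probe sets. Npc2, which hands the freed cholesterol to the exporter in the membrane, gave 909.9 and 853.1 (-0.09). Smpd1, the acid sphingomyelinase, gave 284.7 and 241.8 (-0.24), whereas Asah1, the acid ceramidase, gave 469.6 and 520.5 (0.15). The signals of Lipa and Npc2, which act in turn on lipoprotein cholesterol, thus differed 1.04-fold and 1.07-fold between the pools. Psap, the precursor of the saposin activators, gave 1780.1 and 1701.9 (-0.06), Gm2a, a ganglioside activator protein, 1329.0 and 1109.2 (-0.26), and Ppt1, a thioesterase that removes palmitate from proteins, 205.5 and 195.2 (-0.07). A second probe set of Psap gave 0.25 and one of Gm2a 0.14, opposite in sign to the first.

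Membrane proteins had a median log2 ratio of -0.01 over 9 genes, of which 8 were within 0.5 and Dram1 was far lower. Lamp1, an abundant glycoprotein of the limiting membrane, gave 2697.5 in the control pool and 2701.4 with squalene (log2 ratio 0.00), and Scarb2, the receptor that delivers glucocerebrosidase, 1496.3 and 1501.4 (0.00). Lamp2, which also serves chaperone-mediated autophagy, gave 4062.7 and 3897.4 (-0.06), with its other 3 probe sets from -0.03 to 0.30. Laptm4a gave 2267.7 and 2375.4 (0.07). Npc1, the membrane exporter of lysosomal cholesterol, was the highest of the class, at 326.3 and 391.4 (0.26), on a single probe set.

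Mcoln1, a calcium channel of the organelle, gave 97.7 in the control pool and 97.1 with squalene (log2 ratio -0.01) on the chosen probe set, but 136.2 and 67.6 (-1.01) on a second one of nearly the same mean signal. These 2 probe sets disagree, and the choice between them decides the value of the gene. Cln3, mutated in juvenile Batten disease, gave 76.5 and 68.0 (-0.17). Cd68, a glycoprotein found mainly in the endosomes and lysosomes of macrophages, gave 86.9 and 71.1 (-0.29). Dram1, a membrane protein linked to autophagy, gave 50.6 and 1.1 on its single probe set, which is a log2 ratio of -5.52 as deposited and -0.29 with signals floored at the array medians.

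Other members include proteases, phosphatases and regulators. Lgmn, the asparaginyl endopeptidase that processes cathepsins, gave 213.7 in the control pool and 148.3 with squalene (log2 ratio -0.53, 1.44-fold lower) on its single probe set, the lowest ratio among the 38 genes that were dim in neither pool. Tpp1, a tripeptidyl peptidase, gave 1165.6 and 1059.7 (-0.14) and 0.28 on a second probe set. Acp5, the tartrate-resistant acid phosphatase of macrophages and osteoclasts, gave 627.6 and 536.5 (-0.23), and Acp2, another acid phosphatase, 205.9 and 237.9 (0.21). The other 2 probe sets of Acp2 gave -0.11 and -0.04, opposite in sign to the first. Grn, the progranulin precursor, gave 2310.6 and 2529.9 (0.13), with 0.03 on both of its other probe sets. Tfeb, the regulator named above, was dim in both pools at 21.7 and 16.4.

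**Figure D2:**
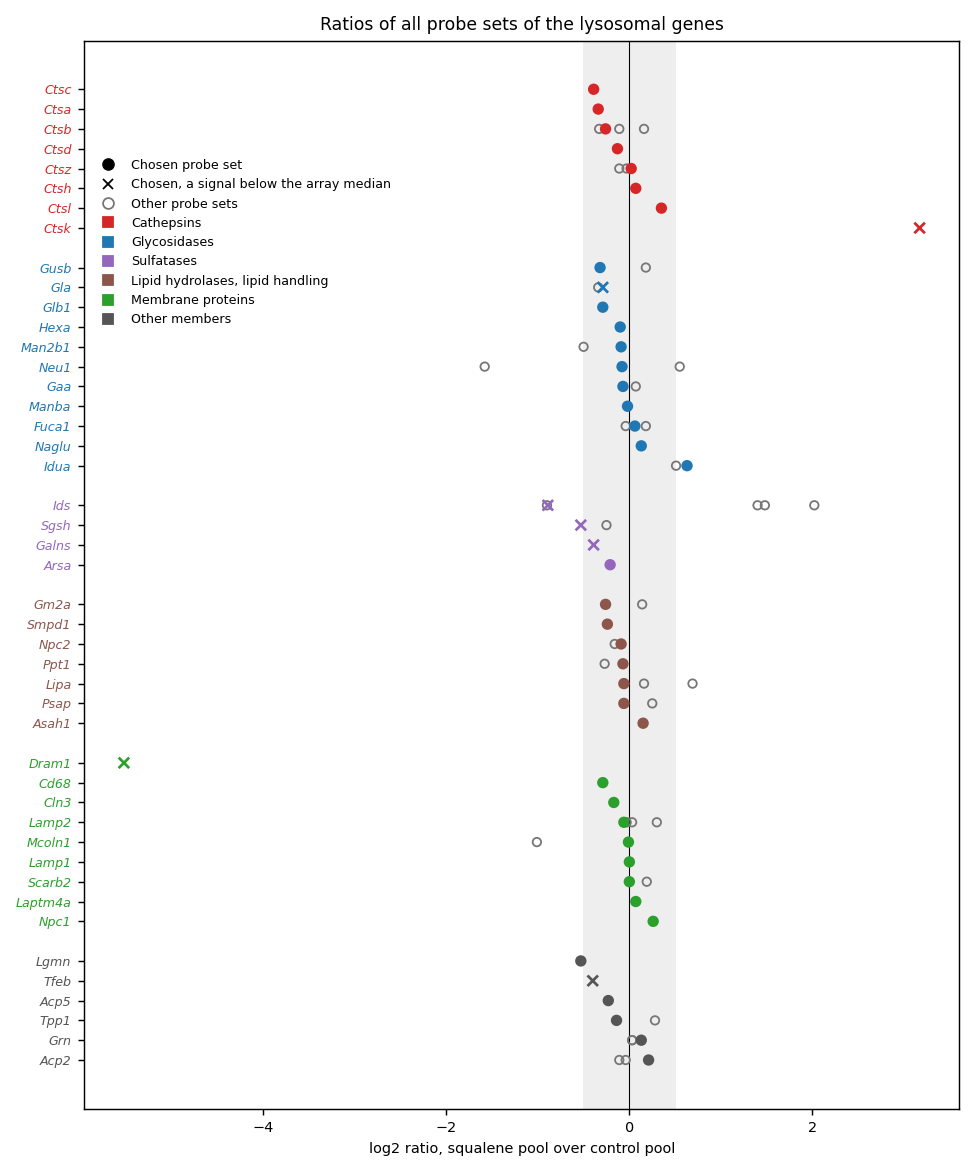
Log2 ratio (squalene over control) for every probe set of 45 lysosomal genes, with the chosen probe set filled, or a cross where a signal was below the array median, the other probe sets as open circles, and the band of 0.5 on either side of 0 shaded. Filled symbols outside the band belong to Idua (0.63) and Lgmn (-0.53), and the open circles of Ids, Neu1 and Mcoln1 lie far from the chosen ones.

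Set side by side, the cathepsins, glycosidases and membrane proteins of the set did not separate. Their median log2 ratios were -0.06 over 8 genes, -0.08 over 11 and -0.01 over 9. Their ranges overlapped almost whole once the dim genes Ctsk and Dram1 were left aside: the 7 other cathepsins ran from -0.39 to 0.35, the glycosidases from -0.32 to 0.63 and the 8 other membrane proteins from -0.29 to 0.26. The median of cathepsins minus that of glycosidases was 0.02, and minus that of membrane proteins -0.05. Over genes dim in neither pool, which leaves out Ctsk, Gla and Dram1, the medians were -0.13 over 7 cathepsins, -0.07 over 10 glycosidases and 0.00 over 8 membrane proteins. The differences were then -0.06 and -0.13, so the sign against glycosidases turned. With probe sets of the plain suffix only, over fewer genes, they were -0.19 and -0.20. With 1 array a group, spread could be measured only among probe sets of 1 gene. For log2 ratios of single probe sets it had a pooled SD of 0.58 over all 57 probe sets of the 22 lysosomal genes with several, and of 0.36 over 44 probe sets of the 17 genes whose chosen probe set was at or above the 75th percentile of mean signal. Where only probe sets at or above that percentile were taken, it was 0.15 over 27 of 11 lysosomal genes and 0.20 over 2460 of 1020 genes on the array. It does not stand for the spread between animals.

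Of the 22 lysosomal genes with several probe sets, 9 had all of them on the same side of 0 and 13 had them on both sides. The 9 genes were Gla, Man2b1, Idua, Sgsh, Ppt1, Npc2, Scarb2, Mcoln1 and Grn. The same count over all genes with several probe sets was not made. The side is nominal where a ratio lies near 0, as in Mcoln1 (-0.01 and -1.01), Scarb2 (0.00 and 0.19) and, among the 13, Ctsz (-0.11 to 0.02). For the other 23 genes a single probe set was available.

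Genes with the flanked E-box in a promoter window had a lower median log2 ratio than those without it. The 12 such genes (Arsa, Cln3, Ctsa, Ctsd, Gaa, Gla, Glb1, Lamp1, Lgmn, Mcoln1, Naglu and Sgsh) had a median log2 ratio of -0.19 and ran from -0.53 to 0.13, with 2 of 12 past 0.5 in size. The 28 measured genes whose windows lacked it had a median of -0.08 and ran from -5.52 to 3.17, with 4 of 28 past 0.5. Of all genes, 19.8% were lower than -0.5 and 21.5% higher than 0.5. The medians with and without the element differed by less than 0.20, the pooled SD among strong probe sets of 1 gene. A link between the element and the ratios was not tested. By class, the element was in 2 of 6 cathepsins, 4 of 11 glycosidases, 3 of 9 membrane proteins, 2 of 4 sulfatases, and 0 of 6 genes of lipid breakdown, counting genes with a promoter window.

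Genes that serve the same organelle outside the 48 were placed beside them. Genes outside the 48 are given by the chosen probe set only. Some have several, such as Arsg with 2 and Dpp7 with 3, and the others are not given. Of 20 further lysosomal enzymes with a probe set, 6 were lower than -0.5 and 0 higher, with a median of -0.21, beside 19.8% and 21.5% of all genes. With a mean signal at or above the median, 4 of 14 were lower, beside 8.08% of all such genes. These 4 were Ctsf (62.6 in the control pool and 32.5, dim, with squalene, log2 ratio -0.95), Hyal2, a hyaluronidase (-0.77), Arsg, a sulfatase (-0.69), and Dpp7, a dipeptidyl peptidase (-0.58). At or above the 75th percentile of mean signal 0 of 9 were past 0.5, with a median of 0.00. Further lysosomal membrane proteins and transporters had a median of 0.02 over 27 genes, with 4 lower and 5 higher, against the same shares of all genes. Of the 18 that were dim in neither pool, 0 were lower and 1 was higher, beside 6.35% and 7.85% of all such genes. That one was Spns1, a lysophospholipid transporter, at 0.66. Ctns, the cystine exporter, stood at 0.85 but was dim in the control pool (39.1), Slc29a3, a nucleoside transporter, at -0.55 but dim with squalene (32.5), and Slc11a1, a metal ion transporter of phagocytes, at -0.45.

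Acidification and delivery genes lay close to 0. All 15 measured proton pump subunits were within 0.5, with a median of 0.00. Atp6v1b2 was the lowest (-0.50) and Atp6v0a1 the highest (0.48), with Atp6v0a2 at 0.39 and Atp6v0b at -0.30. Of 22 genes listed under enzyme delivery and activation, 21 were within 0.5 and the median was -0.08. The list also holds Cst3, Cstb and Sgpp1, which are genes of neither delivery nor activation. All genes of both lists had a mean signal at or above the median. On the whole array, 82.7% of the genes that met this limit were within 0.5. Vps39, a tethering subunit, was at -0.72, Cstb, a cathepsin inhibitor, at -0.44, Vps18 at 0.37 and Sort1, a sorting receptor, at -0.32.

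Upstream regulators and autophagy genes had medians above 0 on the scale as deposited. The factors related to TFEB and the mTORC1 signalling genes had a median of 0.12 over 17, with 3 higher than 0.5 and 0 lower, beside 21.5% and 19.8% of all genes. Of the 3, Rragd (1.2 and 5.8) and Tfec (22.4 and 38.6) were dim in both pools, and with a mean signal at or above the median 1 of 15 was higher, beside 9.21% of all such genes. That gene was Tsc2, an inhibitor of the pathway, which gave 79.0 and 126.1 (log2 ratio 0.67), and Zkscan3 (0.49), Flcn (0.45) and Lamtor4 (-0.48) were within the band. Of 24 autophagy genes, 20 were within the band, 2 were higher and 2 lower, with a median of 0.12. All 24 had a mean signal at or above the median, where 82.7% of all genes were within the band. At or above the 75th percentile of mean signal, the median was 0.01 over 9 regulators and 0.16 over 19 autophagy genes. Pik3c3, the lipid kinase of autophagosome formation, stood at 0.60 and Uvrag, its partner, at 0.51, while Atg7 stood at -0.67 and Tecpr1 at -0.62.

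**Figure D3:**
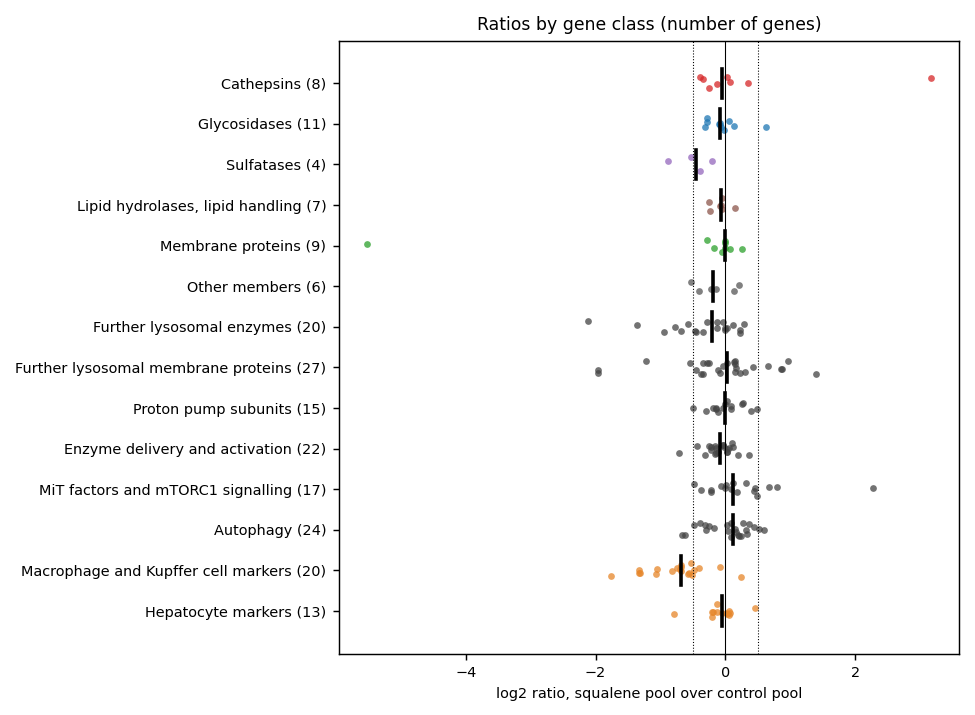
Log2 ratio (squalene over control) by gene class, 1 point per gene, with the median of each class as a black bar, dotted lines at 0.5 on either side of 0, and the number of genes in parentheses. The class medians of the lysosomal genes lie between -0.46 (sulfatases) and -0.01 (membrane proteins), and that of the macrophage and Kupffer cell markers at -0.69.

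Markers of macrophages and Kupffer cells were lower in the squalene pool, and they are given here because those cells are rich in lysosomes. Of 20 markers with a probe set, 19 lay below 0 and 16 below -0.5, beside 48.6% and 19.8% of all genes. Their median log2 ratio was -0.69, and their summed signal was 8684.9 in the control pool and 5522.4 with squalene. None of the 20 was at 0. In such bulk RNA fewer cells of a type and less RNA per cell cannot be told apart. The lysosomal genes known from macrophages were less low. Cd68 (-0.29), Acp5 (-0.23) and Ctsc (-0.39) each lay above 18 of the 20 markers, and Lgmn (-0.53) above 15. Ctsb (-0.26) and Ctsd (-0.13) each lay above 18 as well, and Grn (0.13) and Lamp1 (0.00) above 19. Csf1r, the receptor of the macrophage growth factor, gave 1397.4 and 946.2 (-0.56), Vsig4 945.8 and 584.5 (-0.69), Clec4f 714.6 and 438.8 (-0.70) and Cd5l 1152.9 and 872.0 (-0.40). The part of these cells in the lysosomal values was not tested.

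Hepatocyte markers had a median of -0.06 over 13 genes, near that of the lysosomal genes. Those of endothelial cells had -0.18 over 13, and those of stellate cells and matrix -0.39 over 10, with 2 and 3 genes dim in both pools. Over genes dim in neither pool the medians were -0.17 over 11 and -0.70 over 7. Of these, 2 and 4 were lower than -0.5 and 1 and 0 higher than 0.5, beside 6.35% and 7.85% of all such genes. At or above the 75th percentile of mean signal the medians were -0.54 over 4 and 0.01 over 3. Lymphocyte, neutrophil and erythroid lists had -0.24 over 12, 0.07 over 7 and -0.47 over 3, with 10, 4 and 2 of their genes dim in both pools. Apoe gave 141.0 and 130.6 on 1 probe set, and this probe set cannot serve as a check of the genotype, since its position relative to the targeted part is unknown here.

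**Figure D4:**
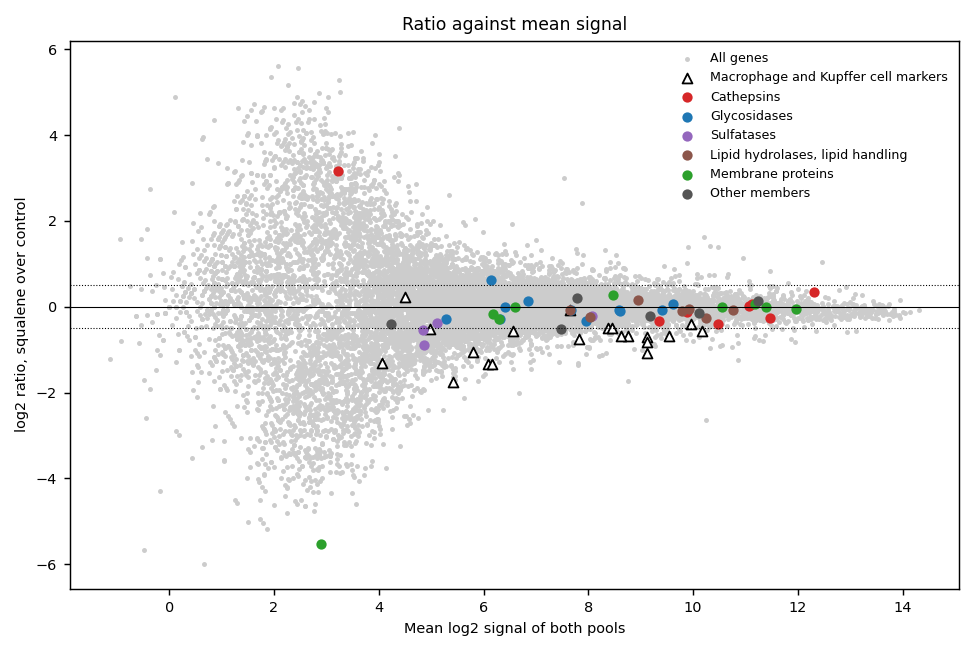
Log2 ratio (squalene over control) against the mean log2 signal of both pools, with 1 point per gene: all 12393 genes in grey, the lysosomal genes coloured by class, and the macrophage and Kupffer cell markers as triangles. The cloud widens at low signal, where Ctsk (3.17) and Dram1 (-5.52) lie, and at higher signal the lysosomal genes lie along 0, above most of the triangles.

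The scale of the arrays limits statements on direction. The 18 probe sets of the hybridization spike-ins, RNAs added in fixed amounts, all gave less signal with squalene (median log2 ratio -0.26). Scaling to them adds 0.26 to every ratio on the array alike. The median of the lysosomal genes was then 0.17 and that of all genes 0.27, and 14 of the 45 lysosomal genes lay below 0, beside 29.1% of all genes. Idua, Ctsl and Npc1 then stood at 0.89, 0.61 and 0.52. The lysosomal median thus lay 0.10 below that of all genes on either scale, and its sign depends on the scale.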

How the data were processed

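Liver RNA of 1 control and 1 squalene pool was read on 1 array each. The deposited intensity values are linear MAS5 signals, 1 per probe set, per the submitters' processing notes, which give neither a software version nor a scaling target. The 2%-trimmed mean was 200.1 on both arrays. Of 22690 probe sets, 64 array controls were left out. A single gene symbol was given for 20380 by the platform annotation, several for 691 and none for 1555, and all 80 probe sets of the described genes carried an Entrez number that gave the same symbol in the RefSeq table. Log2 ratios were taken without a pseudocount or filter. With 1 array per group no p-value was computed, and the number of arrays limits the precision. The members, lists, classes, the band of 0.5 and the alternatives were chosen with earlier results of these data known. Named genes were all members and up to 4 genes of each further list. The latter had the largest ratios among genes with a mean signal at or above the median. The 4 macrophage markers with the highest mean signal, Apoe, the further cathepsins Ctss and Ctsw, and the dim genes Rragd and Tfec were named too. The alternatives were 2 filters on dim genes, centring on all probe sets or on the spike-ins, quantile normalization, loess, a floor at the array medians, a pseudocount of 3.0, and the mean, the smallest ratio or only the plain-suffix probe sets of a gene. The counting step was run on simulated data with shifts and noise set in advance, which checks the code and not the measured values. Python 3.11.15, numpy 2.4.6, pandas 2.3.3, matplotlib 3.10.9 and limma 3.58.1 in R 4.3.3 were used.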

Additional observations from a re-analysis of the deposited data

How the results depend on the processing

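Results were recomputed under 11 alternatives, and a value counted as moved beyond a log2 difference of 0.20, the SD among strong probe sets of 1 gene. The counts of 4 lower and 2 higher genes became 1 and 1 under each of 3 settings. With a mean signal at or above the median, 8.08% of all genes were lower and 9.21% higher. With neither pool dim these shares were 6.35% and 7.85%, and with signals floored at the array medians 4.20% and 4.91%. Under these settings 0 genes were lower and 0 higher past 1.5. Ratios past 1.5 were rare on the whole array too. With a mean signal at or above the median, 13 of 6902 genes were lower and 12 higher. With neither pool dim, 3 of 6459 were lower and 5 higher. Scaling to the spike-ins gave 2 lower and 4 higher genes, beside 14.3% and 33.3% of all genes, and 14 below 0, beside 29.1%. The medians were then 0.17 for all members, 0.20 for cathepsins, 0.18 for glycosidases and 0.25 for membrane proteins. That scaling raised every ratio by 0.26. With probe sets of the plain suffix only, the cathepsin median was -0.26 and its differences from glycosidases and membrane proteins -0.19 and -0.20, over fewer genes. Ids reversed to 0.05 with floored signals and to 0.62 with the mean of its probe sets, and Sgsh to 0.05 with floored signals, the value any gene dim in both pools takes there. The filters and the centrings leave or shift all ratios alike, and the choice of probe set changes nothing in genes with 1. Apart from these, 242 values of single genes could change on their own: 219 stayed within the limit, 20 moved and 3 reversed. Only a main ratio past 0.5 in size that changed sign was counted as reversed. Sign changes of smaller ratios were counted as moved or as within the limit. Of the values counted as moved, Gusb went from -0.32 to 0.18 and Gm2a from -0.26 to 0.14 with the probe set of smallest ratio. With floored signals Galns went from -0.39 and Tfeb from -0.40 to 0.05. In 30 of the 45 genes all values that could change on their own stayed within the limit. The spike-in shift alone exceeds the limit in all 45. No paired analysis was possible because each group has 1 array and the labels carry no replicate numbers.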
